A study of Mus musculus with 9 samples.

Results

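Pde6b, Rbp3 and Cabp5 are 3 genes known mainly from the retina whose transcripts were measured in embryonic mouse lenses with and without the transcription factor Sip1. In the conditional knockout lenses Pde6b was 49.6 times as abundant as in controls without Cre (13.9 ± 1.13 against 0.280 ± 0.011 RPKM, SD, n = 3 each), while Rbp3 (1.97 ± 0.32 against 6.69 ± 1.58 RPKM) and Cabp5 (2.17 ± 0.12 against 4.78 ± 0.28 RPKM) were lower. RPKM is the number of reads per kilobase of exon and per mega of mapped reads. All 3 genes were among the 190 listed for the knockout and its controls, and Rbp3 and Cabp5 were also among the 7676 listed once for a further wild type, out of 7738 genes listed in any table.

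The members were chosen by name with their values known, from a list that was itself selected on the difference between knockout and control libraries: in each of its 190 genes the authors' normalized values had group means at least 2.50-fold apart. Differences between these groups are therefore given as values, without a test.

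RNA came from lenses collected at 15.5 days post conception, in 3 libraries per group, each a pool of 30 lenses described as an independent biological replicate. The conditional knockout (cKO) group had the genotype Sip1 flox/flox with MLR10Cre on a mixed strain background. Its control, the mixed wild type, was Sip1 flox/flox with no Cre on a mixed background, so both carried the floxed alleles and differed in the Cre transgene as well as in Sip1. The inbred wild type was of the strain C57Bl/6<har>, for which no floxed allele or transgene is given. Sip1 is the protein of Zeb2, a zinc finger transcription factor, and MLR10Cre expresses Cre recombinase in lens cells under a modified promoter of the alpha A-crystallin gene. Zeb2 was not among the 190 genes, so the knockout labels were not checked against it here. The smallest steps in RPKM gave a depth of 25.9 to 27.4 M (mega) reads in the cKO libraries, 38.7 to 44.1 M reads in the mixed wild type and 14.1 to 16.7 M reads in the inbred wild type.

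In rods, light acts through the G protein transducin on phosphodiesterase 6, which hydrolyses cyclic GMP and lets the cation channels of the outer segment close. Pde6b encodes the beta catalytic subunit of this enzyme, and mutations in it cause retinal degeneration in mice. The deposited annotation lists rd1 and rd10 among its synonyms, which are names of such alleles, and the labels give no Pde6b genotype. Rbp3 encodes interphotoreceptor retinoid-binding protein, which photoreceptors secrete into the space between them and the pigment epithelium, where it carries retinoids of the visual cycle. Cabp5 encodes a calcium-binding protein of the calmodulin superfamily known from retinal bipolar cells. The lens itself is built of an anterior epithelium and elongated fibre cells filled with crystallins, and forms no photoreceptors.

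The 3 promoters are shown because the design removes a transcription factor with a known recognition core and because Rbp3 is a classical target of the photoreceptor factors Crx and Otx2. Each window runs from 250 bases before to 50 bases after the annotated start in RefSeq (GRCm38.p6), on the plus strand, at chr5:108388123-108388422 for Pde6b, chr14:33953753-33954052 for Rbp3 and chr7:13397905-13398204 for Cabp5. Capitals mark CACCT, the core recognised by Sip1, or TAATCC, the core recognised by Crx and Otx factors, with their reverse complements AGGTG and GGATTA.
Pde6b: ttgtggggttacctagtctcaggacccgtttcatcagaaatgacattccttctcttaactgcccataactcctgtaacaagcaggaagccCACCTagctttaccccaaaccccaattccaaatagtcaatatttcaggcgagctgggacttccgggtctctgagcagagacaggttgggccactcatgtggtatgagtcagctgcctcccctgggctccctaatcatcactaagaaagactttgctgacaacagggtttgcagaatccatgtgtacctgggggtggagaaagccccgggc
Rbp3: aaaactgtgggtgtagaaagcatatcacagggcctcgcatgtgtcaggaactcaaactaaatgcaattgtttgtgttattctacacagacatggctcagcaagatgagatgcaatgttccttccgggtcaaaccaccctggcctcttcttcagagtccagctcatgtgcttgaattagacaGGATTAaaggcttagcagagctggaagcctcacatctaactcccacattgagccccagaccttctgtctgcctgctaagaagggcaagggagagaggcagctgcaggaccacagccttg
Cabp5: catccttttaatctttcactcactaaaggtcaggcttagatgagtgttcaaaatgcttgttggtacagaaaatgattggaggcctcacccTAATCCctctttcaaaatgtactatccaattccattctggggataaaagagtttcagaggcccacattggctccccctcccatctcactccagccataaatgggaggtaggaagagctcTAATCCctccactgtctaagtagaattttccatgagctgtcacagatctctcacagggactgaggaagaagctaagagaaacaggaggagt

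The letters CACCT occurred once in the Pde6b window, beginning at position -160 from the start, and in neither of the other windows. TAATCC or its reverse complement occurred once in the Rbp3 window, at position -69 on the minus strand, and at positions -160 and -41 of the Cabp5 window, and was not found in the Pde6b window. The motifs did not overlap. Of 32851 promoter windows of this length, 51.9% held CACCT on either strand and 7.06% held TAATCC. The promoter table held 177 windows for 139 of the 190 listed genes, and in these the shares were 56.5% and 6.21%. A match of letters is no evidence of a bound site, and no binding was measured.

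**Figure D1:**
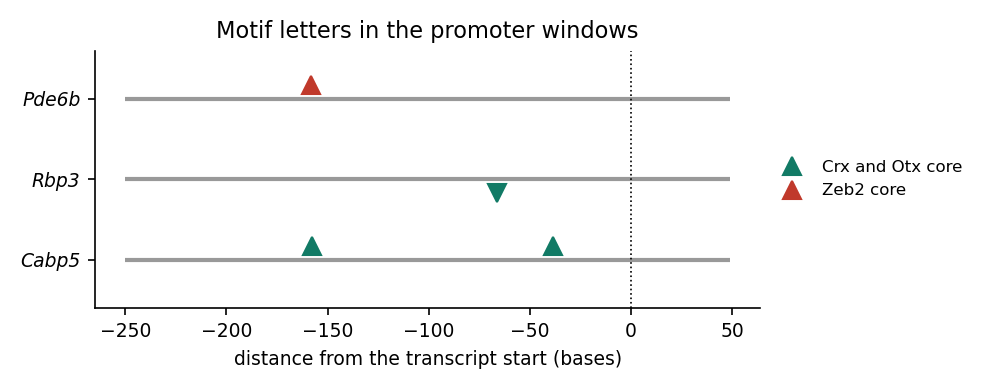
Positions of the motif letters in the promoter windows of Pde6b, Rbp3 and Cabp5; the x axis is the distance from the transcript start in bases, triangles above a line are on the plus strand and those below it on the minus strand. The Zeb2 core lies in the Pde6b window at -160, and the Crx and Otx core lies in the Rbp3 window and at 2 places in the Cabp5 window.

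Pde6b, the phosphodiesterase subunit, was measured at 12.7, 14.0 and 15.0 RPKM in the cKO libraries, against 0.293, 0.277 and 0.271 RPKM in the mixed wild type libraries. Every cKO library was far above every mixed wild type library, and neither group had a library that stood apart. The ratio of the means was 49.6, and the log2 fold change on the log2(RPKM + 0.5) scale was 4.20 (SE 0.10, limma), a scale that understates changes of genes this low. By log2 fold change on this scale it ranked 6th of the 103 genes that were higher in cKO. In mixed wild type Pde6b was close to the bottom of the list, at rank 173 of 190 by mean RPKM, and in cKO at rank 65. The low values rested on few reads, 11.3, 12.0 and 11.9 per kilobase of exon in the mixed wild type libraries, against 348, 363 and 389 in cKO. None of the 6 libraries was at 0. By the authors' normalized values Pde6b averaged 1774 ± 148 in cKO and 41.7 ± 1.16 in mixed wild type (SD, n = 3 each), a ratio of 42.5.

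Pde6b was not among the genes listed for the inbred wild type, whose lowest mean was 2.0 RPKM, so no comparison with that strain was made. Its mean in mixed wild type was below that level.

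Rbp3, the retinoid carrier, was measured at 2.33, 1.82 and 1.75 RPKM in cKO, against 8.06, 4.96 and 7.06 RPKM in mixed wild type. The groups did not overlap, and even the lowest mixed wild type library was above the highest cKO library. The mean was 3.40-fold lower in cKO (log2 fold change -1.53, SE 0.16), and 4.18-fold lower by the authors' normalized values. In the inbred wild type Rbp3 was at 7.17, 7.53 and 9.33 RPKM, which overlapped mixed wild type and lay above every cKO library. These values rested on 337, 249 and 240 reads in cKO, 1644, 1128 and 1642 in mixed wild type and 631, 648 and 696 in inbred wild type.

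Cabp5, the calcium-binding protein, was measured at 2.11, 2.31 and 2.10 RPKM in cKO, against 4.54, 5.08 and 4.73 RPKM in mixed wild type. Here too the groups did not overlap, with a narrow spread in each. The mean was 2.20-fold lower in cKO (log2 fold change -0.98, SE 0.09), and 2.72-fold lower by the authors' normalized values, which placed Cabp5 near the edge of the list, at the 34th smallest difference of 190. In inbred wild type Cabp5 was at 4.15, 5.15 and 4.20 RPKM, a range that overlapped mixed wild type. The reads behind these values were 146, 151 and 138 in cKO, 443, 554 and 526 in mixed wild type and 175, 212 and 150 in inbred wild type.

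**Figure D2:**
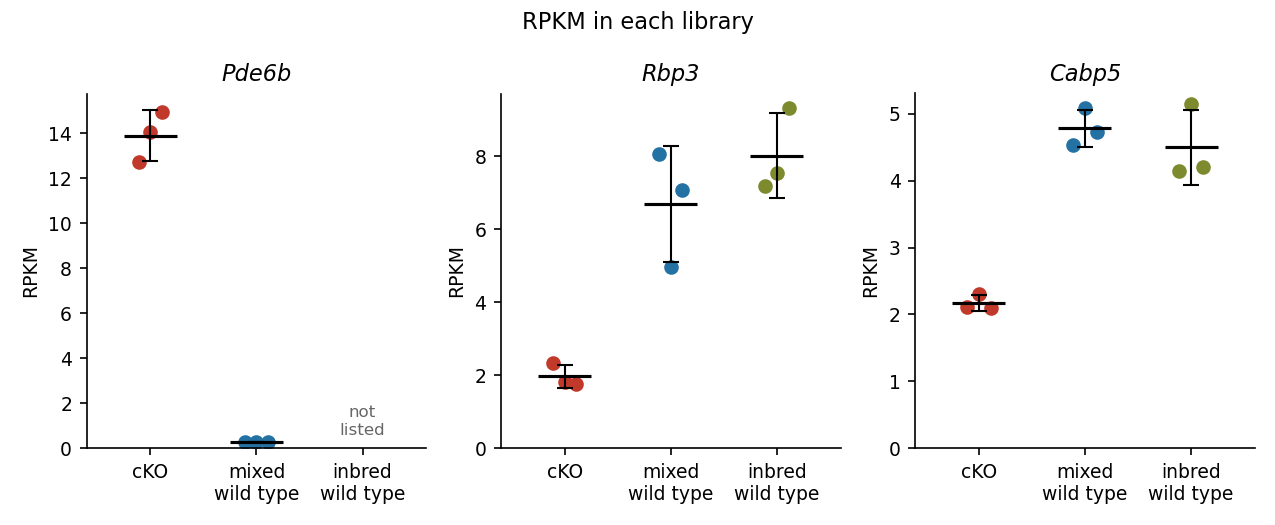
RPKM of Pde6b, Rbp3 and Cabp5 in each library (points), by group on the x axis, with the mean (wide bar) and SD (error bar) of 3 libraries and a y axis of its own per gene. Pde6b is at 12.7 to 15.0 RPKM in cKO and below 0.3 in mixed wild type, while Rbp3 and Cabp5 are lowest in cKO and overlap between the wild types.

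Of all 190 genes, 99.5% were called, meaning an adjusted p below 0.05 by limma with Benjamini-Hochberg adjustment, 54.2% as higher and 45.3% as lower in cKO, and in 100% of them the libraries of the groups did not overlap. That all 3 members separate the groups is thus what the choice of the list fixes. The list holds genes of both directions, and the members, Pde6b above and the others below, were chosen with their values known. In bulk RNA fewer cells of a type and less RNA per cell cannot be told apart. The order of the members' levels differed between the groups. In cKO Pde6b was highest, and Cabp5 and Rbp3 overlapped (2.10 to 2.31 and 1.75 to 2.33 RPKM). In mixed wild type Rbp3 had the highest mean, but its range of 4.96 to 8.06 RPKM overlapped the 4.54 to 5.08 RPKM of Cabp5, and Pde6b lay below both. In inbred wild type every Rbp3 value was above every Cabp5 value.

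**Figure D3:**
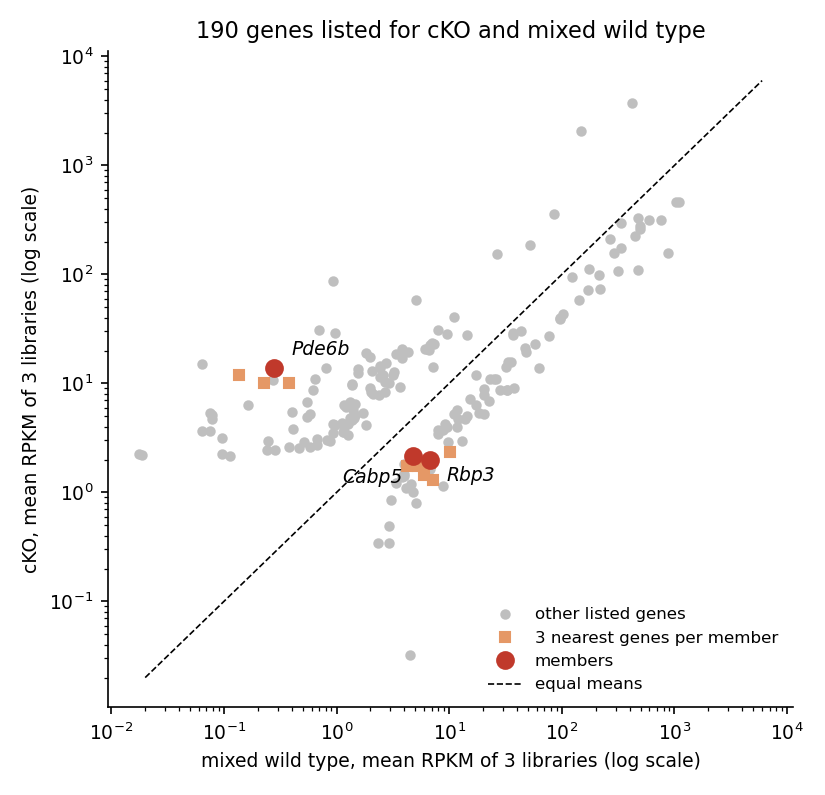
Mean RPKM of 3 libraries in cKO (y axis) against mixed wild type (x axis), both on log scales, for the 190 genes; red points are the members, orange squares the 3 genes closest to each, and the dashed line marks equal means. Pde6b lies far above the line at 0.280 RPKM in mixed wild type, and Rbp3 and Cabp5 lie below it.

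Whether the wild types differ in these genes bears on how the backgrounds compare, and this was tested for the pair listed in both. Rbp3 averaged 6.69 ± 1.58 RPKM in mixed wild type (SD, n = 3) and 8.01 ± 1.16 RPKM in the inbred strain, a log2 fold change of -0.26 (95% interval -0.62 to 0.11, limma adjusted p = 0.202). Cabp5 averaged 4.78 ± 0.28 RPKM in mixed wild type and 4.50 ± 0.56 RPKM in the inbred strain, a log2 fold change of 0.08 (95% interval -0.17 to 0.34, limma adjusted p = 0.553). Neither difference passed the test, and the intervals allow a level in mixed wild type of 0.65 to 1.08 times that in inbred wild type for Rbp3 and 0.89 to 1.26 times for Cabp5. Among 128 genes listed for both strains, 49.2% were called, and in 57.0% the libraries did not overlap. The comparison shares the mixed wild type libraries on which the genes were listed, and depth and the type of table differ with strain. Under median centring over the 128 genes, which moved all log2 fold changes down by 0.15, Rbp3 was called lower in mixed wild type (-0.41, limma adjusted p = 0.017) and the value of Cabp5 was -0.064.

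Against the inbred wild type, cKO lenses had less of both transcripts. These groups differ at once in Sip1, Cre, the floxed alleles, strain, depth and type of table, and the parts of these cannot be told apart. Rbp3 averaged 1.97 ± 0.32 RPKM in cKO (SD, n = 3) against 8.01 ± 1.16 RPKM in the inbred lenses, and was 4.07-fold lower in cKO (log2 fold change -1.78, 95% interval -2.11 to -1.46, limma adjusted p = 2.8e-08). Cabp5 averaged 2.17 ± 0.12 RPKM in cKO and 4.50 ± 0.56 RPKM in inbred wild type, and was 2.07-fold lower in cKO (log2 fold change -0.90, 95% interval -1.20 to -0.60, limma adjusted p = 1.91e-05). All 3 cKO libraries lay below all 3 inbred libraries for both genes. The background for such calls was high, since 60.9% of the 128 genes were called lower in cKO and in 93.8% the libraries did not overlap, and the cKO libraries had entered the choice of the list. Of the 62 genes of the list without inbred values, 60 were higher in cKO than in mixed wild type. The 128 genes are thus weighted towards those lower in cKO. Rbp3 and Cabp5 were also chosen with their values known, so these p-values are no independent evidence. With 3 libraries per group the smallest p an exact permutation test can give is 0.1, so limma was used.

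The members differed in how far replicates of a group varied. Rbp3 was the most variable, with a coefficient of variation of 16.0% in cKO, 23.7% in mixed and 14.4% in inbred wild type, against 6.03%, 2.61% and 3.90% from counting reads alone. In mixed wild type replicate 2 was the low library, at 4.96 RPKM, and 41 genes within 2-fold of the read number of Rbp3 (1471 on average) all had a smaller coefficient of variation, with a median of 7.98%. Cabp5 varied by 5.42% in cKO, 5.82% in mixed and 12.5% in inbred wild type, against 8.30%, 4.44% and 7.47% from counting, and 15 of 41 genes of similar read number varied less in mixed wild type. Pde6b varied by 8.15% in cKO and 4.06% in mixed wild type, with a median over the 190 genes of 8.06% in cKO and 9.53% in mixed wild type. Without an exon length its variation could not be set against counting error. In mixed wild type it rested on only 11.3 to 12.0 reads per kilobase, so the 4.06% is no sign of tight replicates.

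**Figure D4:**
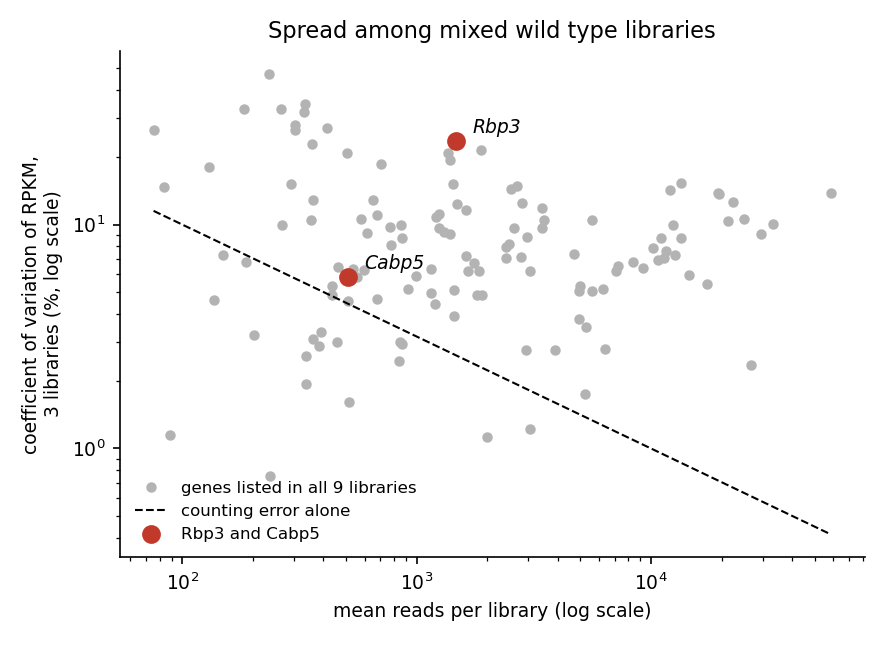
Coefficient of variation of RPKM among the 3 mixed wild type libraries (y axis, %) against mean reads per library (x axis), both on log scales, for the 128 genes listed in all 9 libraries; the dashed line is the variation from counting reads alone. Rbp3 lies at 23.7%, above the other genes of similar read number, and Cabp5 at 5.82%, close to the line.

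The inbred libraries show where these genes stand in a wild type lens. Rbp3 ranked 3696th and Cabp5 5452nd of 7676 listed genes by mean RPKM, above 51.8% and 29.0% of them, with a median of 7.65 RPKM over the list. Of 25 genes that mark lens cells 24 were listed, led by Cryaa at 89016 ± 2774 RPKM (SD, n = 3), a crystallin that is also a chaperone. Of 69 genes of rod and cone phototransduction, photoreceptor transcription factors and photoreceptor structure, 6 were listed for the inbred wild type. They were the G protein subunits Gnb1 (76.7 ± 3.77 RPKM) and Gnb5 (4.10 ± 0.32 RPKM), the transcription factors Casz1 (5.93 ± 0.76 RPKM) and Mef2d (4.23 ± 0.52 RPKM), the lipid-binding chaperone Unc119 (8.11 ± 0.87 RPKM) and Ctbp2 (2.28 ± 0.33 RPKM), whose locus also encodes a synaptic ribbon protein. All 6 are also expressed outside the retina. Gnat1, Crx, Nrl and Otx2, which define photoreceptors or their precursors, were in no table, as were 62 of the 69 genes. A gene outside the tables has no value here and is not shown to be absent.

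Among genes that work beside Rbp3 in retinoid handling, 5 of 19 were listed for the inbred wild type. The retinol transporter gene Stra6 was at 15.9 ± 0.44 RPKM, and the retinol dehydrogenase genes Rdh14 and Rdh11 were at 9.54 ± 0.89 and 4.67 ± 0.57 RPKM (SD, n = 3). Rbp3 lay between Rdh14 and Rdh11. Of 24 cyclic nucleotide phosphodiesterase genes 6 were listed. Pde2a was the highest at 28.7 ± 1.14 RPKM, followed by Pde6d, which binds prenylated proteins and is not catalytic, at 9.57 ± 0.67 RPKM, and by Pde4d, a phosphodiesterase of cyclic AMP, at 7.68 ± 0.34 RPKM. Pde7a (2.80 RPKM), Pde10a (2.62 RPKM) and Pde3b (2.35 RPKM) were near the lower end, and Pde6a and Pde6g, the other subunits of the rod enzyme, were in no table. Of 28 calmodulin-like and neuronal calcium sensor genes 6 were listed. Among them Calm3 and Calm2, which encode calmodulin, were at 101 ± 9.15 and 97.3 ± 5.32 RPKM, and Cabp5, Ncs1 (3.51 ± 0.16 RPKM) and Hpcal1 (3.33 ± 0.04 RPKM) were far below them. Of 15 bipolar cell genes 3 were listed, Prkca (8.80 ± 0.79 RPKM), Scgn (4.39 ± 0.96 RPKM) and Cabp5. For cKO and mixed wild type the members were the only genes of these lists with values: 1 of 21 rod genes, 1 of 19 retinoid genes and 1 of 15 bipolar genes, 0 of 12 cone genes, 0 of 14 photoreceptor transcription factors and 0 of 22 genes of photoreceptor structure. These counts depend on the choice of the lists, which are not complete. Whrn and Elovl4, also known from photoreceptors, were on none of the lists but had values in both groups. The mean of Whrn was higher in cKO (8.318 against 2.002 RPKM in mixed wild type), and that of Elovl4 was lower (1.403 against 4.007 RPKM).

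**Figure D5:**
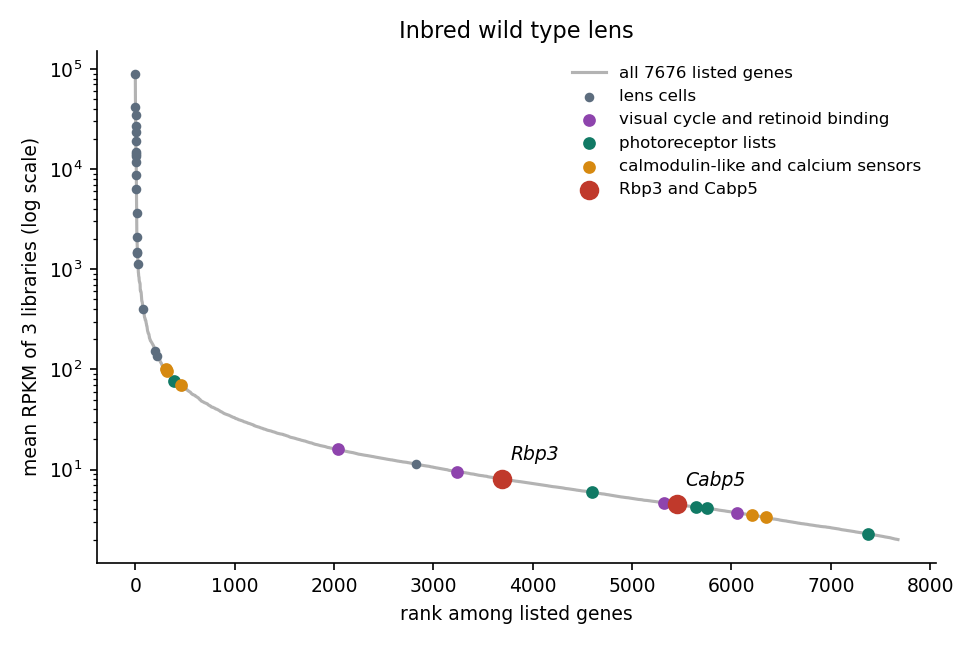
Mean RPKM of 3 inbred wild type libraries (y axis, log scale) against rank (x axis) for 7676 listed genes, with genes of the lens, visual cycle, photoreceptor and calcium sensor lists marked. Lens genes hold the top ranks, Rbp3 stands at rank 3696 and Cabp5 at rank 5452, among the listed photoreceptor and retinoid genes.

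Markers of other cells were looked for as well. Of 21 genes of retinal progenitors and other retinal neurons 4 were listed for the inbred wild type, Hmx1 (30.7 ± 3.0 RPKM), Sfrp2 (26.6 ± 5.05 RPKM), Glul (5.61 ± 0.97 RPKM) and Hes5 (3.36 ± 0.39 RPKM), and of 13 pigment cell genes 1, Mitf (3.05 RPKM). Neither list had a gene with values in cKO and mixed wild type. Of 17 erythroid and vessel genes 3 had values there, summing to 93.2 to 152 RPKM in cKO and 400 to 541 RPKM in mixed wild type. The globin gene Hba-a2 averaged 109 ± 29.5 RPKM in cKO and 476 ± 73.3 RPKM in mixed wild type, Hba-x 1.64 ± 0.88 and 6.70 ± 2.19 RPKM, and the endothelial receptor gene Tek 8.31 ± 0.41 and 2.71 ± 0.17 RPKM (SD, n = 3 each). Of 16 neuronal genes 3 had values, summing to 1972 to 2239 RPKM in cKO and 148 to 164 RPKM in mixed wild type. The ubiquitin hydrolase gene Uchl1 averaged 2086 ± 138 RPKM in cKO and 147 ± 9.18 RPKM in mixed wild type, the RNA-binding protein gene Elavl4 0.49 ± 0.16 and 2.93 ± 0.25 RPKM, and the stathmin gene Stmn4 0.34 ± 0.17 and 2.95 ± 0.02 RPKM. The part of blood, vessel or neuronal cells in the values of Pde6b, Rbp3 and Cabp5 was not tested, and retinal cells could not be assessed in these groups.

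The genes most like each member were found by the distance between log2(RPKM + 0.5) values, which counts both level and change. For Pde6b, over 6 libraries and 190 genes, the nearest were Aass, an enzyme gene of lysine breakdown (11.9 ± 0.30 RPKM in cKO and 0.137 ± 0.009 RPKM in mixed wild type, distance 0.65), the slow muscle troponin gene Tnnt1 (distance 0.83) and the semaphorin receptor gene Plxna2 (0.83), against a median distance of 6.31. For Rbp3, over 9 libraries and 128 genes, they were Aebp1 (1.87 ± 0.19 RPKM in cKO, 6.79 ± 0.43 RPKM in mixed wild type and 6.45 ± 0.71 RPKM in the inbred strain, distance 0.74), the calcineurin regulator gene Rcan2 (1.18) and the sodium channel gene Scn11a (1.34), against a median of 5.41. For Cabp5 they were the synaptotagmin gene Syt5 (1.74 ± 0.22 RPKM in cKO, 5.24 ± 0.15 RPKM in mixed wild type and 4.89 ± 0.60 RPKM in the inbred strain, distance 0.59), Nat8l, which encodes the enzyme that makes N-acetylaspartate (0.75), and Pappa, a protease gene of insulin-like growth factor binding proteins (1.06), against a median of 5.05. No nearest gene was shared, but the 3 nearest to Pde6b had no inbred values and lay outside the search for Rbp3 and Cabp5.

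On the chromosome, the protein-coding neighbours of the members were mostly outside the tables. Of the 6 genes next to them in RefSeq, none had values in cKO and mixed wild type, and 1, Atp5k beside Pde6b, was listed for the inbred wild type at 131 ± 12.7 RPKM. The transcripts share little sequence with other genes: 0% of the 31-base words of the longest Pde6b and Rbp3 transcripts and 2.75% of those of Cabp5 were found in the GENCODE M21 transcripts of any other gene.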

How the data were processed

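RNA from 9 pools of 30 lenses was sequenced from TruSeq libraries, per the labels' protocols. The submitters' processing notes name CASAVA 1.8.2. The aligner, build and annotation were not given in the sources used here. The authors deposited RPKM values, a normalized expression value (a score with no stated unit or method) and, in the inbred tables, other values such as exon length in bases. Of 7700 rows for the inbred strain, 24 with 12 repeated symbols were dropped, and spaces around 54 symbols were trimmed. The deposited tables list only part of the genes.

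The product of RPKM and exon length moved in steps of 1 read in each library (100% of 60 low values, within 0.25 reads), which gave the depth and the reads of Rbp3 and Cabp5. No exon length was listed for Pde6b, so its reads are given per kilobase. Intervals from reads cover counting error only. No replicate pair agreed within sampling noise (chi-square per degree of freedom 6.97 to 54.5).

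Groups were compared with limma 3.58.1 (R 4.3.3), fitted with a mean-variance trend to log2(RPKM + 0.5) of all genes listed in both groups with a mean of at least 1 RPKM, adjusted by Benjamini-Hochberg at 0.05. The fit was tested on simulated data. The members and the 13 gene lists were chosen with earlier results of these data known. Named genes were the members, the 3 nearest in profile, at most 6 listed genes per list and the chromosomal neighbours. Alternatives were pseudocounts of 0.1 and 1, no filter or a mean of 2 RPKM, quantile normalization, median centring, no trend, all 9 libraries in 1 fit, the replicate number as a block and each library left out. The authors' normalized values and a restriction to genes in all libraries were added after seeing the data. Python 3.11.15 with numpy 2.4.6 and pandas 2.3.3 served for the rest. Promoters came from RefSeq (GRCm38.p6), in which all 3 symbols matched. Values of some list genes are not reported here.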

Additional observations from a re-analysis of the deposited data

How the results depend on the processing

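The list was selected on cKO against mixed wild type, so a difference of Pde6b, Rbp3 and Cabp5 there was fixed by that choice. Their directions were known when they were chosen. The direction of each gene was the same under every alternative run, but sizes moved with scale. The filter, the trend, the joint fit and the block cannot move a log2 fold change. Pde6b had a log2 fold change of 5.20 with a pseudocount of 0.1, 3.54 with 1, 3.33 under quantile normalization, 3.32 under median centring and 5.10 in the authors' normalized values. Rbp3 moved to -2.58 under quantile normalization, -2.41 under median centring and -2.01 in the normalized values, and Cabp5 to -2.15, -1.87 and -1.38, and to -1.10 and -0.86 with pseudocounts of 0.1 and 1. Median centring moved all 190 genes, each listed for a difference, by 0.88. With each library left out in turn the values were 4.15 to 4.26 for Pde6b, -1.71 to -1.39 for Rbp3 and -1.02 to -0.94 for Cabp5.

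Between the wild types Rbp3 was called under median centring only (-0.41, limma adjusted p = 0.017, against 0.0724 to 0.698 with a library left out and up to 0.237 under other alternatives), and Cabp5 had -0.064 there, against 0.08 to 0.15 with all libraries under the others. Leaving out libraries gave -0.40 to -0.07 for Rbp3 and 0.03 to 0.17 for Cabp5. Against inbred wild type both genes stayed called lower in cKO throughout, Rbp3 at -2.13 to -1.60 and Cabp5 at -1.24 to -0.64 over the other alternatives. The cKO libraries had entered the choice of the list, and 60.9% of the 128 genes were called lower in the main fit. Of the 62 genes left out for want of inbred values, 60 were higher in cKO than in mixed wild type. Same-numbered libraries did not deviate together in every pair (correlations -0.52 to 0.24), so the numbers were not taken as pairs. With the replicate number as a block the counts of called genes were 189 for cKO against mixed and 120 for cKO against inbred wild type. For mixed against inbred the count was 47, against 63 without the block. All groups hold the same replicate numbers, so the log2 fold changes of Pde6b (4.20), Rbp3 (-1.53) and Cabp5 (-0.98) could not change. In cKO against mixed wild type the SE went from 0.10 to 0.13 for Pde6b, from 0.16 to 0.14 for Rbp3 and from 0.09 to 0.13 for Cabp5. Pde6b could not be fitted with all 9 libraries.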
